A study of Caenorhabditis elegans with 2 samples.

Results

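Enzymes that use pyridoxal phosphate (PLP, the active form of vitamin B6) to handle amino acids or ethanolamine were followed at the level of their transcripts, 10 genes of the 46904 in the table. They were taken by name as *oatr-1*, *tatn-1*, T09B4.8, F26H9.5, *eppl-1*, *got-1.2*, *got-2.2*, *bcat-1*, *kynu-1* and *mel-32*, and the choice was made with results of the same comparison known, so their values are a description and carry no test. The worms were wild-type N2 animals, grown in both groups on *L. plantarum* plus 0.2 µl of *E. coli*, which was either wild-type BW25113 or a *pdxH* mutant. *pdxH* encodes the bacterial enzyme that makes PLP from its phosphorylated precursors. RNA from pooled whole worms, collected at the same stage by the study's description, gave 1 library for each diet, of 40707752 reads on wild-type *E. coli* and 46372171 on the *pdxH* mutant. No value here has a replicate, so a difference between the diets cannot be told apart from a difference between single samples of worms.

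PLP forms a bond with the amino group of a substrate and lets the enzyme move that group, remove a carboxyl group or split the carbon chain. Aminotransferases use it to pass the amino group of one amino acid to a keto acid, and so link the making and breaking of amino acids to the central pathways of carbon metabolism. Animals do not make the vitamin and take it from food or from gut bacteria.

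All 10 genes were well covered. Their reads ran from 1635 to 20233 per library, and all 10 passed a minimum of 100 reads in both libraries together. Levels are given in RPM, reads of a gene per 1000000 reads of the library, and, to compare genes, in RPKM, the RPM divided by the kilobases of exon. In RPKM each gene was more abundant with wild-type *E. coli* than at least 75.5% and at most 96.5% of the 12840 protein-coding genes that passed the same minimum. The 10 genes encode proteins of 370 to 507 amino acids. Of the 10 genes, 5 lie on the X chromosome, which holds 15.01% of all genes with at least 100 reads. The median log2 ratio, *pdxH* mutant over wild type, was 0.07 for genes of the X chromosome and 0.0017 for autosomal genes.

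The 10 genes differed from each other in direction, and by library totals their sum was nearly the same on both diets. Added together they took 1965 RPM on wild-type *E. coli* and 1987 on the *pdxH* mutant. *oatr-1*, *tatn-1*, T09B4.8 and *mel-32* were lower with the *pdxH* mutant, with changes from -35.2% to -20.3%. *eppl-1*, F26H9.5 and *kynu-1* were higher, with changes from 16.4% to 38.6%. *bcat-1*, *got-1.2* and *got-2.2* lay within 8.93% of their level with wild-type *E. coli* by library totals. Scaled to the actin gene *act-1*, treated below, their log2 ratios were 0.43, 0.33 and 0.23. The lower and the higher genes did not divide by the kind of reaction. By library totals, aminotransferases were found in both sets and among the genes that stayed near their level.

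**Figure D1:**
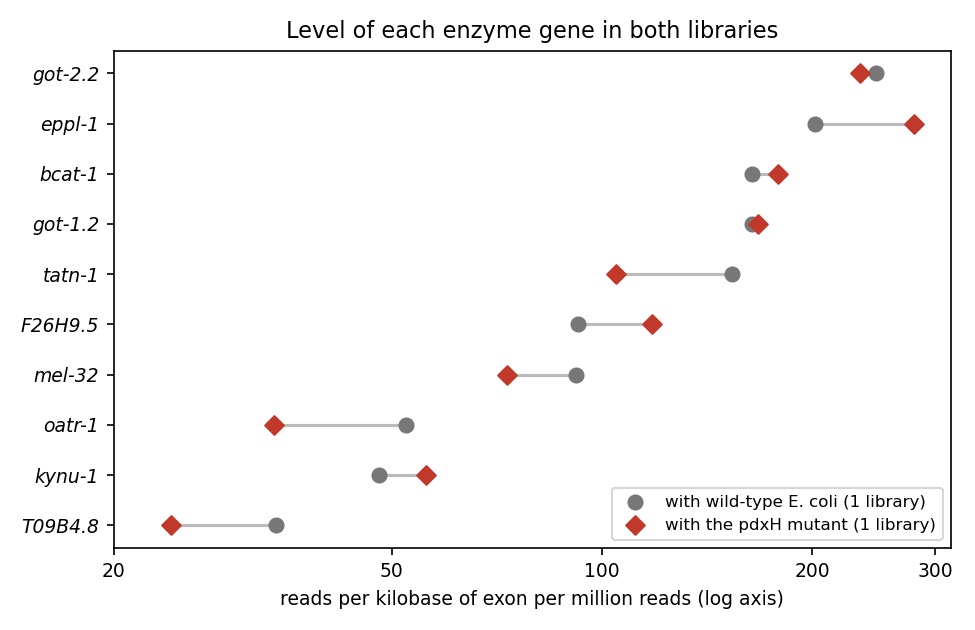
Level of each of the 10 genes, in RPKM on a log axis, with wild-type *E. coli* (grey circles) and with the *pdxH* mutant (red diamonds), 1 library each. *eppl-1* lies above *got-2.2* with the *pdxH* mutant and below it with wild-type *E. coli*, and F26H9.5 and *tatn-1* change places as well.

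The order of the levels was nearly the same on both diets, with 3 exchanges of neighbours. With wild-type *E. coli* the most abundant gene per length was *got-2.2*, at 246 RPKM, followed by *eppl-1* at 202. With the *pdxH* mutant *eppl-1* was first at 279.5 RPKM, followed by *got-2.2* at 234. F26H9.5 and *tatn-1* exchanged ranks 5 and 6. *kynu-1* and *oatr-1* exchanged ranks 8 and 9. T09B4.8 was last on both diets, at 34.1 and 24.1 RPKM. *bcat-1* and *got-1.2*, at ranks 3 and 4 on both diets, stood at the same level with wild-type *E. coli*, 164 RPKM each.

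Differences between the diets are given as log2 ratios, *pdxH* mutant over wild type, of deposited values plus a pseudocount of 1, with a 95% interval that covers counting error only. This interval left out 0 for 9 of the 10 genes, 4 higher and 5 lower (*got-2.2* among the lower, which is higher when scaled to *act-1*). Among the 13227 genes with at least 100 reads it left out 0 for 55.7% (28.7% higher and 27% lower), and among the 4671 genes with at least 3000 reads, a coverage close to that of the members, for 71.6% (38.5% and 33.1%). Past a log2 ratio of 0.5, a limit the study set on another measure of fold change, 3 of the 10 were lower and 0 were higher. Of all genes with at least 100 reads, 8.89% were lower and 4.68% higher past it, and of those with at least 3000 reads 5.46% and 1.73%. Past 0.25, 4 of the 10 were lower and 2 higher, against 17.7% and 18% of genes with at least 100 reads. The 10 genes were picked on this contrast, so nothing is read from these shares. Their median log2 ratio was -0.03, against 0.01 for all genes with at least 100 reads, but it was 0.28 when values were scaled to *act-1*. Their median size of change in either direction was 0.34, against 0.13 for genes with at least 3000 reads.

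*act-1*, the actin gene that served as reference in the study's qPCR, was itself lower, at 11042 against 10206 reads, a log2 ratio of -0.30 (95% interval -0.34 to -0.26). By the paper's account that qPCR, relative to *act-1*, bore out the mRNA changes of the members *eppl-1* and F26H9.5. Its values were not used here. Scaling to *act-1* adds 0.30 to every log2 ratio, moves the median of all genes to 0.31 and turns 1176 lower and 619 higher genes past 0.5 into 678 and 3035. Among the 10 genes it leaves 0 lower past 0.5, with *oatr-1* at -0.32, *tatn-1* at -0.25 and T09B4.8 at -0.20, and puts 3 higher past it, *eppl-1* at 0.77, F26H9.5 at 0.65 and *kynu-1* at 0.52. Scaling by TMM, by the median of ratios or by the ribosomal protein genes shifted the ratios by at most 0.02 in size. All ratios below are scaled by the library totals unless *act-1* is named. Counts in the lists below stand beside the shares of all genes given above. Those scaled to *act-1* stand beside 678 lower and 3035 higher of the 13227 genes with at least 100 reads.

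**Figure D2:**
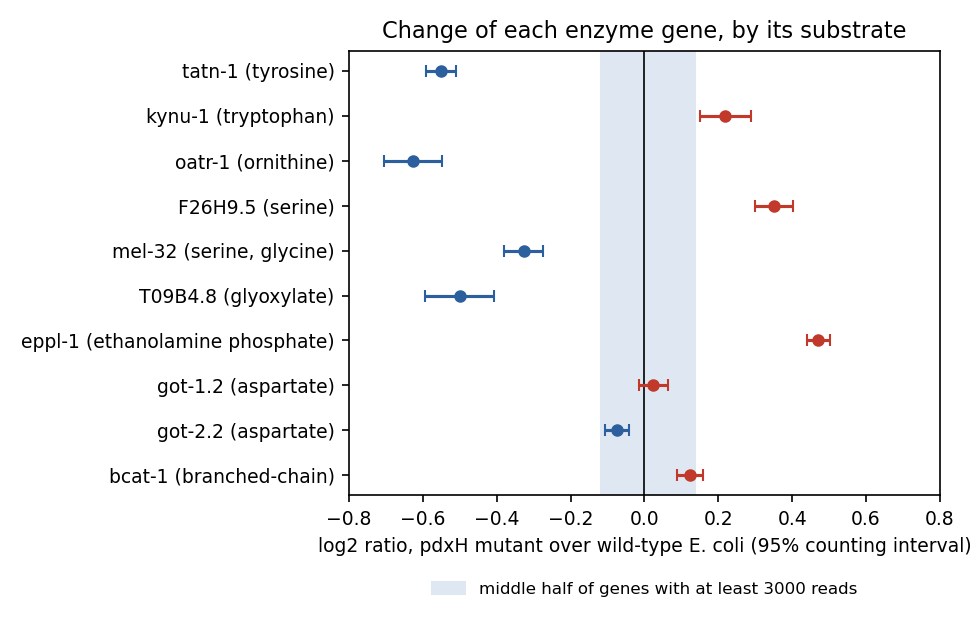
Log2 ratio of each gene, *pdxH* mutant over wild-type *E. coli*, with its 95% counting interval, named with the substrate or product it serves. Blue points are lower and red points higher on library totals, with *got-2.2* turning higher when scaled to *act-1*, and the shaded band spans the quartiles of all genes with at least 3000 reads, from -0.12 to 0.14.

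*tatn-1* encodes tyrosine aminotransferase, the first step in the breakdown of tyrosine. It lies on the plus strand of chromosome X between 14791008 and 14792984 (WBGene00009628; WBcel235, the assembly also named ce11) and has 3 exons. It had 11159 reads on wild-type *E. coli* against 8669 on the *pdxH* mutant, or 274 and 187 RPM. The *pdxH* library was thus the lower one, a change of -31.8%, with a log2 ratio of -0.55 (95% interval -0.59 to -0.51). Its neighbours in the route did not show this difference. *pah-1*, the phenylalanine hydroxylase that supplies tyrosine, was at 0.05, and *hpd-1*, the dioxygenase that takes the product of *tatn-1*, was at 0.04. The log2 ratio of *tatn-1* minus that of *hpd-1* was -0.59 (95% interval -0.64 to -0.55). Per length, *tatn-1* stood at 0.470 of *hpd-1* with wild-type *E. coli* and at 0.311 with the *pdxH* mutant. Further along, *hgo-1*, the homogentisate dioxygenase, was at 0.36, the isomerase gene *gst-42* at -0.35 and *fah-1*, which ends the route in fumarate and acetoacetate, at -0.06. Of the 6 genes of this route, 1 was lower past 0.5 and 0 were higher, and scaled to *act-1* 0 were lower and 1, *hgo-1* at 0.66, was higher.

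*oatr-1* encodes ornithine aminotransferase, a mitochondrial enzyme that turns ornithine into the precursor of proline and glutamate. The gene lies on the minus strand of chromosome III between 6394236 and 6396182 (WBGene00015814), with 7 exon blocks. It had 3106 reads on wild-type *E. coli* against 2293 on the *pdxH* mutant, or 76.3 and 49.4 RPM. Its log2 ratio of -0.63 (95% interval -0.70 to -0.55) was the lowest of the 10, although its interval overlapped that of *tatn-1*.

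Of 12 listed genes of ornithine, proline and polyamine metabolism 10 were found by name, and all 10 passed the minimum of 100 reads. By library totals the interval lay under 0 for 7, *oatr-1* among them, and over 0 for 0, where 27% and 28.7% of all genes with at least 100 reads did so. Their median log2 ratio was -0.18 by library totals and 0.13 when scaled to *act-1*, a change of sign. *alh-13*, which makes the same proline precursor from glutamate, was at -0.45, and *pycr-1* and *pycr-4*, which reduce that precursor to proline, were at -0.40 and -0.33. *alh-6*, the dehydrogenase that takes the product of *oatr-1* to glutamate, had 4675 reads against 4748, a log2 ratio of -0.17. *oatr-1* lay under *alh-6* by a difference of -0.46 (95% interval -0.56 to -0.36). *odc-1*, the PLP-dependent ornithine decarboxylase that opens the polyamine route and competes with *oatr-1* for ornithine, was the highest of the list at 0.03.

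F26H9.5 and *mel-32* belong to the same route and stood on opposite sides. F26H9.5 is the worm counterpart of phosphoserine aminotransferase, the middle step in making serine from a glycolytic intermediate, and *mel-32* encodes serine hydroxymethyltransferase, which turns serine into glycine and charges folate with a one-carbon unit. F26H9.5 lies on the minus strand of chromosome I from position 9312631 to position 9314891 (WBGene00009177). It had 5178 reads on wild-type *E. coli* against 7520 on the *pdxH* mutant, or 127 and 162 RPM. Its log2 ratio was 0.35 (95% interval 0.30 to 0.40), and the *pdxH* library was the higher one. It shares 12 bases of exon, or 0.872% of its own, with *uev-3* on the other strand, a gene with 768 and 1045 reads.

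*mel-32* is on the minus strand of chromosome III between 6440145 and 6443000 (WBGene00003214) and has 4 annotated transcripts. It had 6297 and 5718 reads, or 155 and 123 RPM, with a log2 ratio of -0.33 (95% interval -0.38 to -0.28) by library totals and -0.03 when scaled to *act-1*. Per length F26H9.5 and *mel-32* were level with wild-type *E. coli*, at 92.4 and 91.9 RPKM, and apart with the *pdxH* mutant, at 118 and 73.2. The difference between their log2 ratios was 0.68 (95% interval 0.60 to 0.75).

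The steps on either side of F26H9.5 were not higher to the same extent. *phdh-1*, which encodes the phosphoglycerate dehydrogenase that makes its substrate, had 8551 reads against 10079, a log2 ratio of 0.05. Y62E10A.13, the counterpart of phosphoserine phosphatase, which releases serine, was at -0.14. *gldc-1*, the PLP-dependent glycine decarboxylase of the cleavage system that splits glycine, was at 0.18, while *gcst-1*, its aminomethyltransferase, was at -0.12. For 18 genes of serine, glycine and one-carbon metabolism, all with at least 100 reads, the interval lay over 0 for 6 and under 0 for 7. Of all genes with at least 100 reads, 28.7% and 27% did so. The median of the 18 was -0.03 by library totals and 0.27 when scaled to *act-1*, and the count past 0.5 was 1 lower and 0 higher by the former and 0 and 3 by the latter. F26H9.5 was the highest of the 18 and T09B4.8 the lowest.

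T09B4.8 is by sequence the worm counterpart of a mammalian mitochondrial alanine-glyoxylate aminotransferase, an enzyme that removes glyoxylate by making glycine. It lies on the minus strand of chromosome I between 6164719 and 6166539 (WBGene00020382) and was the least covered member. It had 2031 reads on wild-type *E. coli* against 1635 on the *pdxH* mutant, or 49.9 and 35.3 RPM. The log2 ratio was -0.50 (95% interval -0.60 to -0.41), so the gene sat on the limit of 0.5, and with a pseudocount of 10 it lay inside. *agxt-1*, another alanine-glyoxylate aminotransferase gene, was at -0.17 with 2588 and 2624 reads. T09B4.8 was under it by a difference of -0.33 (95% interval -0.46 to -0.21).

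*eppl-1* encodes ethanolamine-phosphate phospho-lyase, which breaks ethanolamine phosphate into acetaldehyde, ammonia and phosphate. It lies on the minus strand of chromosome IV between 8449353 and 8451759 (WBGene00020139), with 6 exon blocks. It had the most reads of all members with the *pdxH* mutant, 20233 against 12811 with wild-type *E. coli*, or 436 and 315 RPM. Its log2 ratio of 0.47 (95% interval 0.44 to 0.50) was the highest of the 10, and 94.6% of genes with at least 100 reads had a lower one. It belongs to the same class of aminotransferase-like proteins as *oatr-1* and T09B4.8, both of which were lower. Other genes of that class were not compared with *eppl-1*. The difference in log2 ratio between *eppl-1* and *oatr-1* was 1.097 (95% interval 1.01 to 1.18), and that between *eppl-1* and T09B4.8 was 0.97 (95% interval 0.87 to 1.07).

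Some genes that make or use ethanolamine phosphate were higher by more than *eppl-1* or by a similar amount, and others were not. *ckb-2*, of the choline and ethanolamine kinase family whose products include ethanolamine phosphate, had 19773 reads against 40421, a log2 ratio of 0.84 (95% interval 0.82 to 0.87). Other kinase genes of the list did not share this, with *ckb-1* at -0.03, *ckb-4* at 0.01 and *ckc-1* at -0.10, all with intervals that held 0. *ckb-3* had only 24 and 40 reads. *pmt-1* and *pmt-2*, the methyltransferases that turn ethanolamine phosphate into phosphocholine, were at 0.60 and 0.37. The PLP-dependent lyases *spl-1* and *spl-2*, which release ethanolamine phosphate from sphingoid bases, were at -0.30 and -0.39, and *spl-3* was at 0.05. *pcyt-2.1*, which commits ethanolamine phosphate to phosphatidylethanolamine, was at -0.03, and its paralog *pcyt-2.2* was at 0.25 with 372 and 503 reads. Of 18 genes of this list with at least 100 reads, 2 were higher past 0.5 (*ckb-2* and *pmt-1*) and 1 was lower (*pssy-2*, a phosphatidylserine synthase gene, at -0.61 with 476 and 354 reads), against 4.68% higher and 8.89% lower of all genes. Scaled to *act-1*, 6 were higher and 0 lower. The median of the list was 0.08 by library totals and 0.38 when scaled to *act-1*. The 19 listed genes together took 2423 RPM on wild-type *E. coli* and 3408 on the *pdxH* mutant. This sum is weighted to the genes with the most reads, *pmt-1* (30606 and 53003) and *ckb-2* (19773 and 40421). Of the 18 genes, the interval lay over 0 for 8, under 0 for 3 and held 0 for 7. Of all genes with at least 100 reads it lay over 0 for 28.7% and under 0 for 27%.

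*kynu-1* encodes kynureninase, which cleaves alanine from kynurenine and hydroxykynurenine in the breakdown of tryptophan. It lies on the minus strand of chromosome X between 6106927 and 6109338 (WBGene00015802), with 9 exon blocks. It had 2965 and 3933 reads, or 72.8 and 84.8 RPM, with a log2 ratio of 0.22 (95% interval 0.15 to 0.29). The steps before it were higher too. *tdo-2*, the dioxygenase that opens the tryptophan ring, was at 0.17 with 7946 and 10171 reads. *kmo-1*, the monooxygenase that supplies hydroxykynurenine, was at 0.27, and its difference from *kynu-1* had an interval that held 0 (-0.16 to 0.06). *afmd-1*, the formamidase between these steps, was at 0.52, but on 90 and 147 reads.

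Past *kynu-1* the ratios were lower. *haao-1*, the dioxygenase that takes its product toward NAD, had 1274 reads against 1285, a log2 ratio of -0.18. *kynu-1* was above it by 0.40 (95% interval 0.26 to 0.53). *umps-1*, which is used in the last part of this route in the worm, was the lowest of the list at -0.46. *nkat-3*, a PLP-dependent kynurenine aminotransferase that competes for the substrate of *kynu-1*, was at -0.11. Of the 9 genes of this route with at least 100 reads, the interval lay over 0 for 5 and under 0 for 4, against 28.7% and 27% of all genes. Scaled to *act-1*, *haao-1* and *nkat-3* were above 0 while *umps-1* was not. Past 0.5, 1 was higher and 0 lower by library totals, and 4 and 0 when scaled to *act-1*.

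*got-1.2* and *got-2.2* encode the cytosolic and the mitochondrial aspartate aminotransferase, which exchange amino groups between glutamate and aspartate and carry reducing power between both compartments. Both are on chromosome X, *got-1.2* on the minus strand between 16791347 and 16793126 (WBGene00020146) and *got-2.2* on the plus strand between 6240983 and 6242709 (WBGene00015778). *got-1.2* had 9484 and 10988 reads, or 233 and 237 RPM, with a log2 ratio of 0.02 (95% interval -0.02 to 0.06). It was the only member whose interval held 0. Short non-coding RNAs on the other strand share 100 and 32 bases of its exons, and they had at most 1 read.

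*got-2.2* had 14637 and 15829 reads, or 359.6 and 341 RPM, with a log2 ratio of -0.08 (95% interval -0.11 to -0.04) by library totals and of 0.23 when scaled to *act-1*. The difference between *got-1.2* and *got-2.2* was 0.10 (95% interval 0.05 to 0.15). The related mitochondrial gene *got-2.1* had 1014 reads against 982, a log2 ratio of -0.23. *got-2.2* was 13.6 times as abundant as *got-2.1* per length with wild-type *E. coli* and 15.2 times with the *pdxH* mutant.

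Other genes of aspartate, glutamate and alanine metabolism spread more widely than this pair. Of 19 with at least 100 reads the lowest was *asns-1*, an asparagine synthetase gene that uses aspartate, at 2191 against 1194 reads, a log2 ratio of -1.06 (95% interval -1.17 to -0.96). Its paralog *asns-2* was at -0.09 with 6589 and 7042 reads. The highest was the glutaminase gene *glna-3* at 0.52, on 302 and 495 reads. Past 0.5, 1 was higher and 1 lower by library totals, and 6 and 1 when scaled to *act-1*. *gdh-1*, the glutamate dehydrogenase, which competes for glutamate, had 105342 and 140209 reads and was at 0.22. The malate dehydrogenases that work beside both aminotransferases in the exchange of reducing power were at 0.24 for the cytosolic *mdh-1* and at -0.16 for the mitochondrial *mdh-2*, the latter above 0 when scaled to *act-1*.

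*bcat-1* encodes the branched-chain aminotransferase, the first step in the use of leucine, isoleucine and valine. It lies on the plus strand of chromosome X between 12877480 and 12880328 (WBGene00001149). It had 12335 reads on wild-type *E. coli* against 15307 on the *pdxH* mutant, or 303 and 330.1 RPM, with a log2 ratio of 0.12 (95% interval 0.09 to 0.16). The subunits of the dehydrogenase complex that takes its products were close to it or to 0, with *bckd-1A* at 0.15, *bckd-1B* at -0.07 and *dbt-1* at -0.02. The interval of the difference between *bcat-1* and *bckd-1A* held 0 (-0.10 to 0.04). This route had the narrowest range of the 7 pathway lists. Its 14 genes ran from -0.15 for *mccc-1* to 0.25 for *ech-6*, 0 were past 0.5, and the median was 0.01. Scaled to *act-1* they ran from 0.15 to 0.55, with 3 higher past 0.5, a median of 0.31 and *bckd-1B*, *dbt-1* and *mccc-1* above 0.

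**Figure D3:**
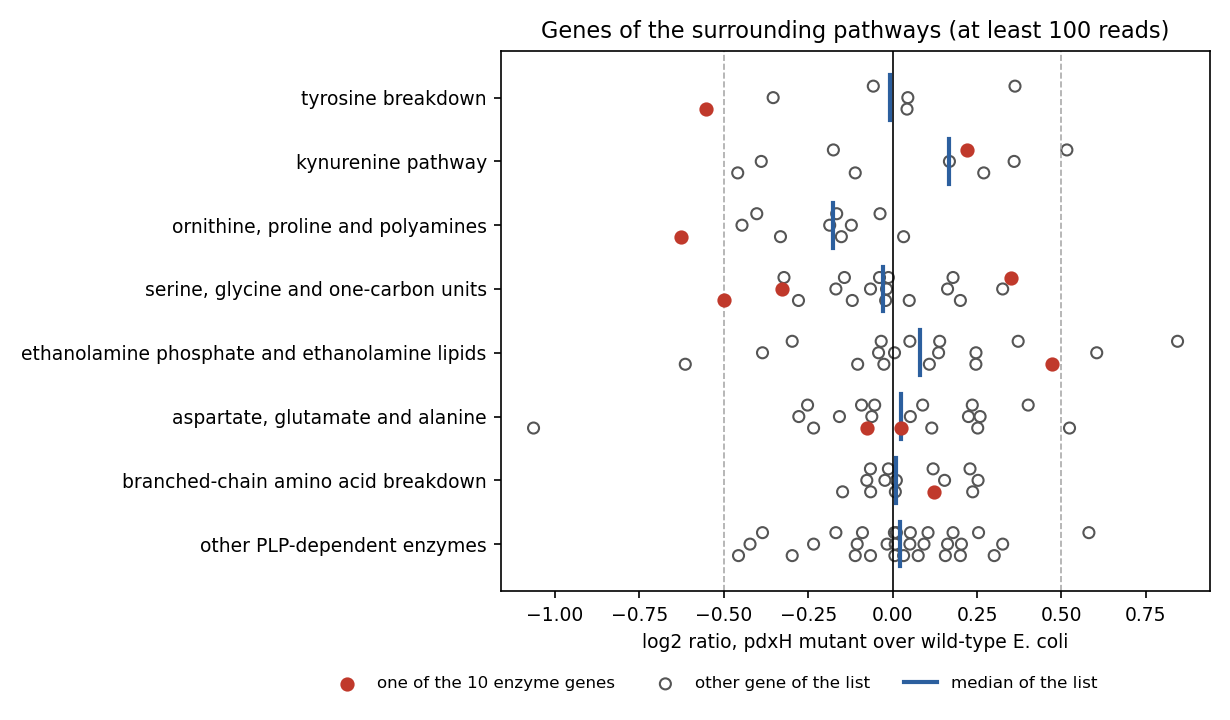
Log2 ratio, *pdxH* mutant over wild-type *E. coli*, of the genes with at least 100 reads in 8 lists. Filled red points are the 10 genes, open points the other genes of a list, blue bars the medians (from -0.18 to 0.17 by library totals, and 0.13 or above when scaled to *act-1*), and dashed lines a log2 ratio of 0.5 in either direction. Branched-chain genes lie close together, while members lie at the lower end of the tyrosine and ornithine lists and at both ends of the serine list.

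Placed in order of their log2 ratios, 6 of the 9 pairs of neighbouring members had counting intervals that did not overlap. *oatr-1* and *tatn-1*, *tatn-1* and T09B4.8, and *bcat-1* and *kynu-1* were the pairs that overlapped. Of 22 differences computed between one of the 10 and another gene, of the same pathway or of its enzyme class, 20 had an interval that left out 0. These pairs were set around members picked on this contrast, and no share over other pairs was computed. Of single genes with at least 3000 reads, the interval left out 0 for 71.6%, so nothing is read from the count of pairs. The counting intervals hold no spread between cultures. If each library carried a coefficient of variation (CV) of 0.1 besides counting error, 4 of the 10 members would keep an interval that leaves out 0, and with 0.2 none would. These 4 were *oatr-1*, *tatn-1*, T09B4.8 and *eppl-1*. With counting error left out, the CV at which their intervals would reach 0 was between 0.118 for *eppl-1* and 0.156 for *oatr-1*. No value of it can be had from 1 library a diet.

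**Figure D4:**
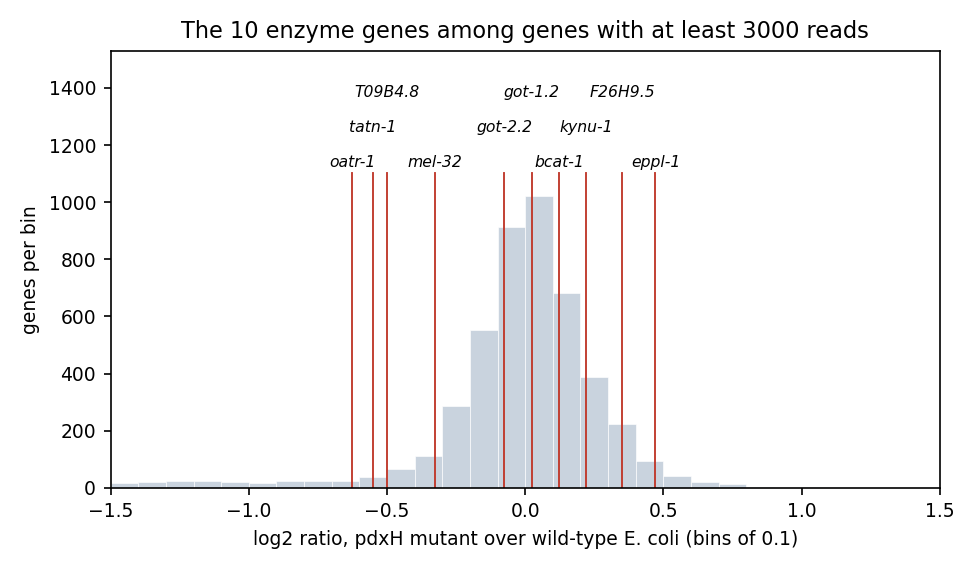
Number of genes per bin of 0.1 in log2 ratio, for genes with at least 3000 reads, with the 10 members marked by red lines. Values beyond 1.5 in either direction are outside the plotted range. The members were chosen with these values known, and *oatr-1*, *tatn-1* and T09B4.8 lie in the sparse lower tail, where 5.46% of these genes are below -0.5 (by library totals).

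Of 37 other enzymes listed that need PLP, outside the 10, 35 were found and 30 had at least 100 reads. Past 0.5, 1 was higher and 0 were lower by library totals, against 4.68% and 8.89% of all genes. Scaled to *act-1*, 6 were higher and 0 lower, against 3035 and 678 of the 13227 genes with at least 100 reads. The interval lay over 0 for 12, under 0 for 7 and held 0 for 11, where it lay over 0 for 28.7% and under 0 for 27% of all genes. The median was 0.02, or 0.32 when scaled to *act-1*. *cysl-2*, a cysteine synthase family gene, was the highest at 0.58, and *cth-2*, a cystathionine lyase gene, the lowest at -0.46. Among the further aminotransferases of this list, *gta-1*, the aminotransferase of gamma-aminobutyrate, was at 0.09 and C32F10.8, the alanine aminotransferase gene also called *gpt-1*, at 0.05.

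The libraries came from whole worms, in which fewer cells of a type and less RNA per cell cannot be told apart. The paper reports early arrest of larvae on *L. plantarum* with a trace of the *pdxH* mutant. It describes the sequenced worms as of the same stage. Whether both libraries differed in stage or in the timing of moults was not tested. Of 35 marker genes, 34 had at least 100 reads and none was at 0 in either library, the exception to the minimum being *nos-2* with 2 and 13 reads. The 5 germline markers that passed were all lower by library totals, with log2 ratios of -0.68 to -0.31. Scaled to *act-1* they ran from -0.38 to -0.01, with *mex-5* at -0.01 and so near no change. The 6 listed together summed to 275 and 187 RPM. The 6 epidermal markers ran from -1.34 for the collagen gene *rol-6* to 0.17, with a median of -0.17 by library totals and 0.13 when scaled to *act-1*, and summed to 919 and 508 RPM. Of these sums the cuticle collagen genes *rol-6* and *dpy-7* held 688 and 278 RPM, and the other 4 markers 232 and 229.8 RPM. Intestinal and body wall muscle markers had medians of -0.15 and -0.17 by library totals, both above 0 when scaled to *act-1*, with sums of 2114 and 1682 and of 9856 and 8549 RPM. Neuronal markers had a median of 0.21, with sums of 462 and 514.04 RPM, and pharyngeal muscle markers one of 0.10, with sums of 1853 and 1833. The part of these differences in the values of the 10 genes was not tested.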

How the data were processed

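Whole-worm RNA was sequenced as paired reads, with 1 library per diet. Per the labels and the study's methods, the authors trimmed reads with Trimmomatic, mapped them with STAR 2.5.3a (ce11), counted them per gene with HTSeq and ran GFOLD 1.1.4. The deposited signal values, headed RPKM, are reads per gene scaled by the library total with the same length, 20 bases, set for all genes, which leaves them without a length correction. The authors' log2 columns (a fold change and the GFOLD value) and q-value column hold their own comparison and were not used. Whether strand was used in counting, and how reads of several genes were treated, is not given in the sources used here, so shared reads of paralogs and overlapping genes are uncertain.

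Values were divided by that of 1 read (1.23 and 1.08). Of values up to 20 reads 100% came out whole, and of all values above 0, 97.8% and 97.6%, within 0.02 reads. The columns were assigned by the library names and totals in the file header. Log2 ratios used a pseudocount of 1. Intervals (95%) are exact Clopper-Pearson intervals of the reads, while those of differences between genes are normal approximations on log counts. Both cover counting error only, and reads are not independent molecules. With 1 library per diet no test between diets was possible. The added exact binomial test of whole reads (adjusted p by Benjamini-Hochberg) sets library against library, and says nothing on the diets. Of 23141 genes it put 3301 on the higher and 3326 on the lower side. The intervals of single genes and this test were tried on simulated reads that held counting error only, as both assume. That trial says nothing on the spread between cultures.

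Symbols matched 44017 identifiers, and positions and exon lengths are those of Ensembl release 115 (WBcel235, the assembly of ce11), which holds 46817. Of 121 pathway genes listed, 4 names were not found. The members and lists were chosen with earlier results of these data known. Named are the members, *act-1*, and from each list enzymes next to a member, its paralogs and the highest and lowest genes with at least 100 reads. Genes named beyond these (*afmd-1*, *gcst-1*, *gst-42*, *fah-1*, *hgo-1*, *umps-1*, *mdh-1*, *mdh-2*, *asns-2*, *pycr-1*, *pycr-4*, *gta-1* and the marker genes) were chosen after their values were seen where they fall outside this rule. Not every enzyme next to a member was named in the results. Those left out include *argn-1* of the ornithine list, at -0.19, and *kmo-2* of the kynurenine list, at 0.36. Alternatives were other pseudocounts, thresholds, filters, scalings (TMM from edgeR 4.0.16) and assumed variation. Python 3.11.15 and SciPy 1.17.1 were used.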

Additional observations from a re-analysis of the deposited data

How the results depend on the processing

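No paired analysis was possible because there is 1 library a diet. Leaving out a replicate was likewise not possible. Pseudocounts of 0.1 and 10, TMM, the median of ratios and the ribosomal protein genes left each of the 50 log2 ratios of members under these settings inside its counting interval. Scaling to *act-1* moved all 10 and turned *got-2.2* from lower to higher, at 0.23. Under it the members' median was 0.28, 0 members were lower and 3 higher past 0.5, pathway genes were 1 lower and 27 higher against 5 and 5, and all genes 678 lower and 3035 higher against 1176 and 619. At a threshold of 1, 0 members were lower. At 0.25, 2 members were higher, and 20 pathway genes were lower and 18 higher. Without the minimum of 100 reads 8 pathway genes were lower and 8 higher, as were 4499 and 4123 of all genes. With at least 3000 reads, chosen after seeing the data, these were 255 and 81. The number of members whose interval left out 0 was 9, 4 with an assumed CV of 0.1 and 0 with 0.2. Counting error alone leaves T09B4.8 on either side of a threshold of 0.5 (-0.60 to -0.41).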
